A study of Mus musculus with 4 samples.

Results

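The genes described are members of the interleukin-1 (IL-1) family of cytokines with their receptors and antagonists: Il1a, Il1b, Il1rn, Il18, Il18bp, Il1r1, Il1r2, Il1rl1, Il18r1 and Il1rap. They were chosen by name, as every probe set of the array table that carries a member as its only gene symbol. Of the 10 genes, 9 were measured, by 13 probe sets out of 22626 tested, against 12393 named genes in the whole table; Il1rl1, the receptor of IL-33, was not analysed here. The 4 arrays carry RNA from dendritic cells (DC) of mouse bone marrow, strain c57bl/6; DC present antigen to T cells. One group, with 2 arrays, is immature DC. The other, also with 2, is labelled as modulated by NKT (natural killer T) cells, which are T cells that recognise lipids. The design text says that RNA was taken from CD11c cells, CD11c being an integrin of DC. The labels and the design text do not state animal age, culture conditions, the source of the NKT cells or the length of contact. Nothing says whether the arrays of a group came from separate cultures, so the p-values rest on array-to-array spread that could be purely technical.

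IL-1 alpha and IL-1 beta signal through the receptor IL-1R1 and its partner chain, the accessory protein IL-1RAP, to the adaptor MyD88 and NF-kB. The pathway is held back by the antagonist IL-1RN, which occupies the receptor without activating it, and by IL-1R2, a decoy receptor that binds IL-1 and does not signal. IL-18 is a related cytokine that drives interferon gamma production by T and NK cells, and it is neutralised by IL-18BP. IL-1 beta and IL-18 are made as precursors that caspase-1 cleaves inside inflammasomes, so their RNA does not give the amount of active cytokine.

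The arrays of a group correlated at r = 0.985 and 0.987 across probe sets on the log2 scale, and arrays of different groups at 0.96 to 0.965. Median signals were 145.7 and 158.1 for immature DC against 135.6 and 129.0 for NKT-modulated DC, and the 3′ to 5′ signal ratio of Gapdh was 1.44 to 1.76 against 1.87 to 1.98. DC markers were present in all arrays: of 10 listed, 10 were measured, 0 lay below a signal of 16 on all arrays, 1 rose (Cd86, a costimulatory ligand) and 1 fell (Csf2ra, a chain of the GM-CSF receptor). H2-Aa, an MHC class II gene, had signals of 14590 and 12460 in immature and 15250 and 14770 in NKT-modulated DC. T and NKT cell markers moved with the groups: of 17 measured, 11 rose and 0 fell, and their summed signal was 1396 to 1493 in the immature and 6625 to 8471 in the NKT-modulated arrays. Cd3g, a chain of the T cell receptor complex, gave 19.05 and 15.39 in immature against 1401 and 1046 in NKT-modulated DC. Of the 17, 0 were below 16 on all arrays. Some were below 16 on both immature arrays, among them Cd3d with 5.376 and 5.578. Of other cell types, mast cell and basophil markers had 1 of 11 higher and 1 lower. Their summed signal was 1038 to 1126 in immature against 933.1 to 1080 in NKT-modulated DC. Hdc rose from 19.63 and 22.38 to 362.3 and 321. Kit, the brightest of the list, fell from 625.7 and 736 to 374.5 and 262.7. Neutrophil markers had 3 of 10 higher and 1 lower (5969 to 6554 against 5755 to 5815). Mmp8, which gave most of that sum, fell from 4917 and 5248 to 3542 and 3715. The rises were in S100a8, Ngp and Cxcr2, the last from 72.71 and 88.02 to 531.2 and 570. B cell markers had 1 of 5 higher (119.8 to 123.6 against 321.1 to 380.5). It was Cd79b (35.34 and 32.01 against 270.1 and 209.8), and the other 4 were not called. Macrophage markers had 1 of 5 higher and 1 lower (22240 to 23180 against 22660 to 23700). Marker calls used an adjusted p under 0.05, which 5.99% of all genes passed as higher and 6.88% as lower. The part of T cell RNA and of these markers in the results on IL-1 family genes was not tested. In such bulk samples, fewer cells of a type and less RNA per cell cannot be told apart.

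The stretches before listed start sites of the 3 ligand genes that rose among the members show the DNA next to those sites. They are from RefSeq, build GRCm38.p6, and are written 5′ to 3′ on the strand of the gene, with capitals for matches to 8 motifs searched on both strands: AP-1 (TGANTCA), the PU.1 core (GAGGAA), C/EBP (TTGCNNAA), CRE (TGACGTCA), GAS (TTCNNNGAA), the TATA box (TATAAA), and by name the ISRE and the kappaB consensus. All 3 genes lie on chromosome 2. For Il1b, chr2:129371165-129371389 on the minus strand ends 25 bases before the listed start site. It was cut there because the interval that RefSeq gives for this gene reaches chr2:129371164, so its 2 annotated starts differ. For Il1a, the stretch from the TATA box to the AP-1 match is chr2:129309978-129310004 on the minus strand, ending 5 bases before the listed start site. It lies inside the interval that RefSeq gives for the gene, which reaches chr2:129310186, so the 2 annotated starts differ here too. For Il1rn, chr2:24336610-24336859 on the plus strand runs up to the outermost of its 3 listed start sites.
Il1b: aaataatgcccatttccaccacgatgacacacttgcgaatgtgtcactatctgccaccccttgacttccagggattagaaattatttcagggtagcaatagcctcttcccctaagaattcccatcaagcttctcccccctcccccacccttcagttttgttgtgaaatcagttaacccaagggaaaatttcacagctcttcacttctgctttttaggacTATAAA
Il1a: TATAAAaaggcagagaagccTGACTCA
Il1rn: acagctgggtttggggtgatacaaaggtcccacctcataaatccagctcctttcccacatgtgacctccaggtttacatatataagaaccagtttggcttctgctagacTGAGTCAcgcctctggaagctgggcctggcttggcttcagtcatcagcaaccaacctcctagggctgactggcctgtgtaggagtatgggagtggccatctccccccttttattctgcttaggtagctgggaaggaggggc
The 250 bases before a listed start site held a TATA box in 12.4% of 32851 promoters, an AP-1 match in 6.75% and a kappaB match in 7.25%. Il1a held a TATA box, an AP-1 match and, further from the start site, a PU.1 core, which 23.3% of promoters hold. Among the windows of measured members, the kappaB consensus was found before 1 of the 2 listed start sites of Il1r1. These are matches of letters within a short window and say nothing of a factor that binds outside it.

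NKT-modulated DC were set against immature DC gene by gene, each gene being represented by its brightest probe set. Among the 9 measured members, 5 rose (Il1a, Il1b, Il1rn, Il1r1 and Il1rap), 2 fell (Il1r2 and Il18r1) and 2 did not pass (Il18 and Il18bp), at an adjusted p under 0.05 in limma with adjustment over all probe sets. Over all genes, 5.99% were called higher and 6.88% lower. The median log2 change of the members was 0.83, and that of all genes was -0.04. At the level of probe sets, 6 of 13 were called higher and 2 lower, beside 5.36% and 5.7% of all probe sets. The normalized values of the groups did not overlap for 9 of 9 genes and 13 of 13 probe sets. This separation was shown by 56.3% of all genes and 53.5% of all probe sets as well. Before normalization it held for 12 of the 13, and the share of all probe sets was not taken on that scale. With the design text's threshold of 0.001, taken as an adjusted p, 2 members were higher (Il1a and Il1b), beside 1.06% of all genes, and 0 lower, beside 0.178%. The count of 5 was 3 without NKT-modulated replicate 1 and 3 without NKT-modulated replicate 2; the count of 2 was 1 when any single array, immature or NKT-modulated, was left out.

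**Figure D1:**
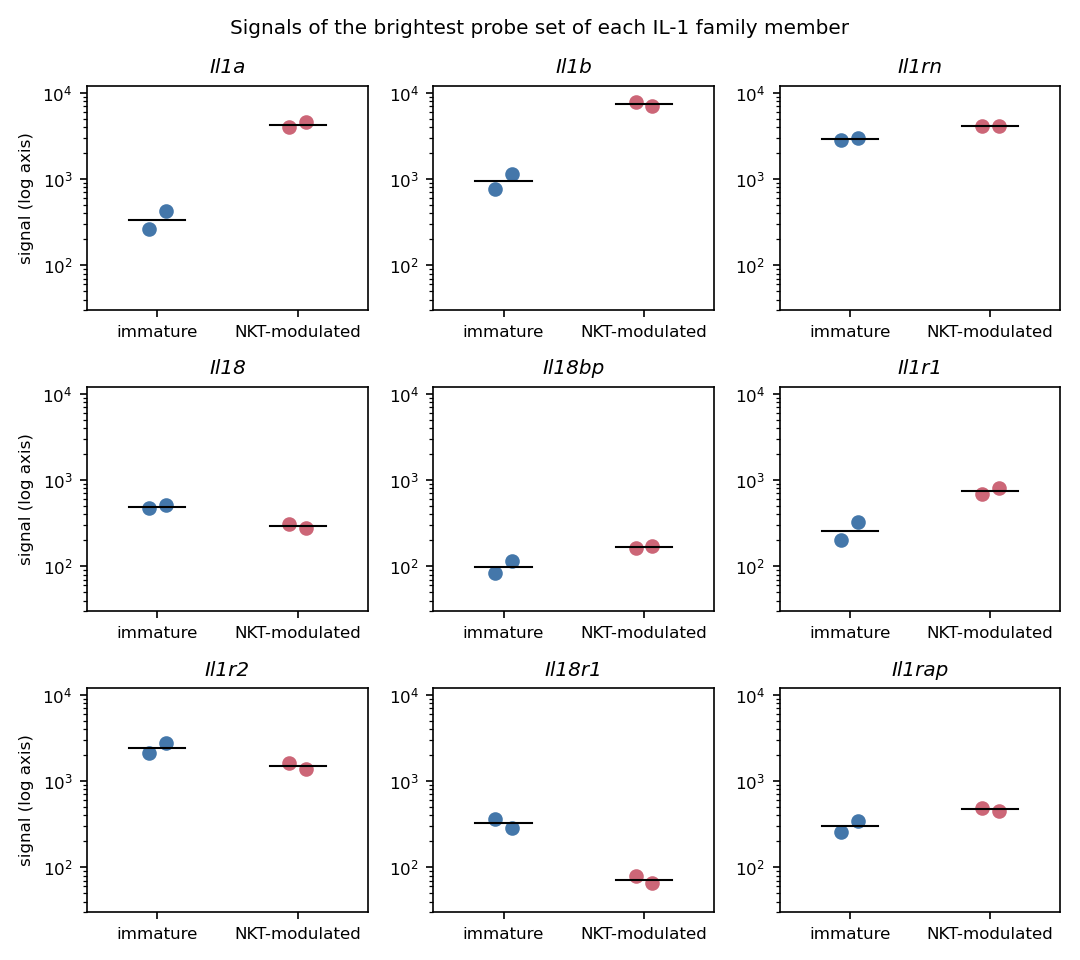
Signal (log axis) of the brightest probe set of each measured IL-1 family gene on the 2 immature and 2 NKT-modulated arrays, before normalization; points are arrays and lines are geometric means of 2 arrays. Il1a and Il1b are separated by the widest gaps upwards and Il18r1 by the widest gap downwards, from 287.8 and 364.9 to 79.13 and 65.4.

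Il1a and Il1b had the steepest rises among the 9 measured members. Il1a, whose product acts as a membrane-bound and released alarm signal, had signals of 261 and 426.2 in immature DC, against 4032 and 4558 in NKT-modulated DC. The higher immature array lay far below the lower NKT-modulated array, and log2(signal + 16) rose by 3.71 ± 0.18 (SE from limma with n = 2 arrays in each group, which holds for every change below; adjusted p = 1.98e-04), a 13.1-fold rise on that scale. Among 12393 genes, 36 had a larger rise. Il1b, the gene of the secreted inflammasome-processed form, had signals of 771.8 and 1145 against 7860 and 7037. It rose by 3.01 ± 0.14 (adjusted p = 1.46e-04), or 8.05-fold, and 63 genes had a larger rise. Both genes kept their call under all 12 alternative settings tried, with changes of 3.49 to 4.01 for Il1a and 2.82 to 3.26 for Il1b.

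Il1a moved further than Il1b. Within arrays, the log2 difference between the 2 probe sets grew by 0.70, with SDs of 0.08 in the immature and 0.20 in the NKT-modulated arrays, and the groups did not overlap. An exact two-sided permutation test of 2 arrays against 2 cannot give less than p = 0.333, which is the value obtained here and in the 6 other pairs of members compared below. This compares changes and not levels, since signals of different probe sets are not on 1 scale.

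Il18, the third agonist among the members, did not follow them. Its signals were 469.5 and 512.5 in immature and 311.1 and 279.6 in NKT-modulated DC, lower on both NKT-modulated arrays. The log2 change was -0.51 ± 0.13 (95% interval -0.82 to -0.19; adjusted p = 0.0599), which did not pass the threshold. It passed without further normalization (-0.70, adjusted p = 0.0363) and, at an unchanged value of -0.51, with dim probe sets left out (adjusted p = 0.0300) and with the mean of a gene's probe sets (adjusted p = 0.0316). Il18 had only 1 probe set, so that mean left its values as they were and only the error and the adjustment changed. With adjustment over genes only, Il18 did not pass (adjusted p = 0.0518). Relative to Il1b its change was -3.51 log2 units, with SDs of this difference of 0.32 and 0.04.

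Of the soluble inhibitors, the IL-1 antagonist rose by less than Il1a and Il1b. The brightest probe set of Il1rn had signals of 2839 and 2967 in immature DC, against 4133 and 4174 in NKT-modulated DC. Arrays of a group lay close together, and the change was 0.52 ± 0.08 (adjusted p = 0.0124), or 1.44-fold. The second probe set, with signals of 792.2 and 974.8 against 1326 and 1369, gave 0.73 ± 0.10 (adjusted p = 0.00641). The third and dimmest, with 125.2 and 172.9 against 268.6 and 199.1, gave 0.80 ± 0.22 and did not pass (adjusted p = 0.0699). All 3 probe sets thus had higher values on the NKT-modulated arrays. The call of the brightest was lost without immature replicate 2 (adjusted p = 0.0506), without NKT-modulated replicate 1 (0.0697), without NKT-modulated replicate 2 (0.0859) and without the intensity trend of the variance (0.113).

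Relative to Il1b the change of Il1rn was -2.49 log2 units, and relative to Il1a it was -3.19, with SDs of 0.08 to 0.43 within groups, and neither pair overlapped between groups. Il18bp, the soluble trap of IL-18, had signals of 84.66 and 115.8 against 163.9 and 171. Both NKT-modulated arrays were higher, with a change of 0.83 ± 0.22 (95% interval 0.31 to 1.36; adjusted p = 0.0636) that did not pass. At the same change it passed with dim probe sets left out (adjusted p = 0.0203) and with the mean of a gene's probe sets (0.0346), and did not pass with adjustment over genes only (0.0550). Like Il18, it had only 1 probe set to average. Il18bp and Il18 moved apart by 1.34 log2 units, with SDs of 0.25 and 0.15.

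**Figure D2:**
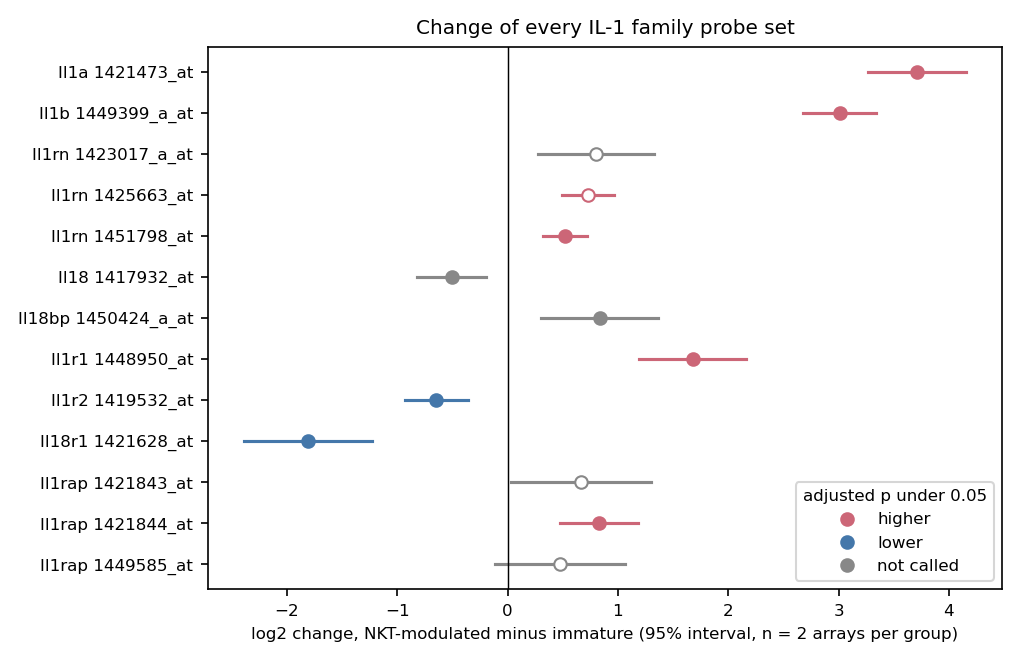
Log2 change of each of the 13 IL-1 family probe sets, NKT-modulated minus immature DC, with its 95% interval (limma, n = 2 arrays per group); filled points are the brightest probe set of a gene and colours give the call. Il1a and Il1b stand at 3.71 and 3.01, Il1r1 at 1.68, and Il18r1 at -1.81.

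The signalling receptor chains of IL-1 rose and the decoy receptor fell. Il1r1, the chain that binds IL-1 and signals, had signals of 200.9 and 326 in immature and 690.8 and 805.8 in NKT-modulated DC. The immature arrays differed from each other by more than the NKT-modulated ones, and all lay apart between groups. Its change was 1.68 ± 0.20 (adjusted p = 0.00447), or 3.2-fold, and it kept its call under all 12 alternatives, with changes of 1.43 to 1.94.

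Il1rap, the accessory chain shared by the receptors of IL-1 and IL-33, was read by 3 probe sets that differed in their calls. The brightest had signals of 257.1 and 346.3 against 493.7 and 451.1 and rose by 0.83 ± 0.15 (adjusted p = 0.0184). The second gave 103.3 and 175.5 against 174.3 and 160.7, which overlap before normalization, and a change of 0.48 ± 0.24 (adjusted p = 0.298). The third gave 60.62 and 42.34 against 88.22 and 84.28 and a change of 0.67 ± 0.26 (adjusted p = 0.181). The call therefore rests on 1 of 3 probe sets. It was lost without immature replicate 1 (adjusted p = 0.0779), without NKT-modulated replicate 1 (0.107), without NKT-modulated replicate 2 (0.0718), without further normalization (0.0831) and without the intensity trend (0.0646). Relative to Il1r1 the change of Il1rap was -0.85 log2 units, with SDs of 0.19 and 0.24.

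Il1r2, the decoy, had signals of 2135 and 2785 in immature DC, against 1619 and 1375 in NKT-modulated DC. All NKT-modulated values were lower, and the gene fell by 0.64 ± 0.12 on the log2 scale (adjusted p = 0.0220), 1.56-fold on that scale. Against Il1r1 it moved by -2.32 log2 units within arrays, with SDs of 0.19 and 0.32. Its call was lost without immature replicate 2 (adjusted p = 0.0784), without NKT-modulated replicate 1 (0.0587), without NKT-modulated replicate 2 (0.105) and without the intensity trend (0.115), at changes of -0.54 to -0.73.

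The ligand-binding chain of the IL-18 receptor had the steepest fall among the measured members. Il18r1 had signals of 364.9 and 287.8 in immature and 79.13 and 65.4 in NKT-modulated DC, a wide gap between groups. It fell by 1.81 ± 0.24 on the log2 scale (adjusted p = 0.00636), 3.51-fold, and 30 of 12393 genes fell further. Its call held under 11 of 12 alternatives and was lost without immature replicate 1 (-1.56, adjusted p = 0.0528). Il18rap, the partner chain, had signals of 124.4 and 102.7 against 155.4 and 188.2, with a change of 0.71 ± 0.23 that did not pass (adjusted p = 0.115) and a 95% interval of 0.15 to 1.26. Both chains are known from T and NK cells. The arrays with low Il18r1 are those with high T and NKT cell markers, 11 of 17 of which rose. Of 8 NK cell markers measured, 3 rose and 1 fell. The rises were in Il2rb, Xcl1 and Gzma. Il2rb had signals of 7.888 and 6.935 in immature against 374.8 and 365.5 in NKT-modulated DC. Those of Xcl1 were 14.25 and 15.27 against 448.1 and 253.3, and those of Gzma 32.67 and 22.46 against 124.3 and 109.1. The fall was in Klrd1, the NK receptor chain CD94 and the brightest of the list, with signals of 638.5 and 716.6 against 134.2 and 160.5. Ncr1, a defining NK receptor, was below 16 on all arrays. The summed signal of the NK list was 771.1 to 838.0 in immature and 976.8 to 1204 in NKT-modulated DC, and its part in the change of Il18r1 was not tested.

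**Figure D3:**
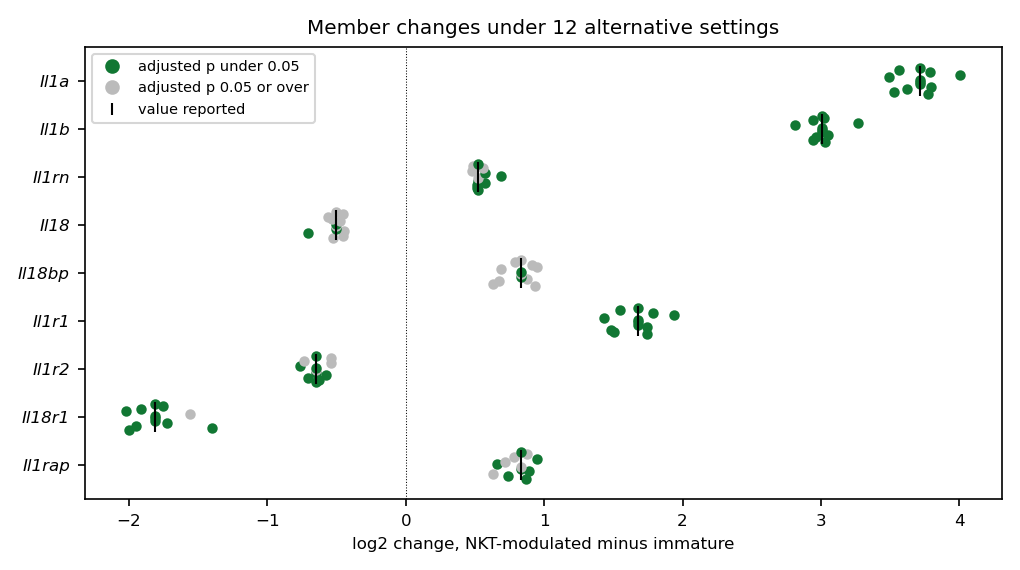
Log2 change of each measured IL-1 family gene (brightest probe set) under 12 alternative settings, each a point, green where the adjusted p was under 0.05; the bar is the value reported. All alternatives kept the direction of every gene, while the calls of Il1rn, Il1r2, Il18r1 and Il1rap were lost under 1 to 5 of them.

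The other genes of the IL-1 pathway were grouped into 5 lists, of which 63 of 78 genes were measured. Together 21 rose and 5 fell. The median change was 0.31, beside 5.99% and 6.88% of all genes and a median of -0.04. Of 6 further family members measured, 1 rose: Il33, the ligand of the receptor that Il1rl1 encodes, from signals of 106.7 and 116.9 to 183.6 and 245.3 (1.00 ± 0.22, adjusted p = 0.0390). Its call was lost without any single array, at changes of 0.80 to 1.24. It was also lost without further normalization (adjusted p = 0.0705) and without the intensity trend (0.07045). Il1f10, encoding IL-38, gave 131.9 and 139.6 against 128.1 and 21.23 and a change of -0.92 ± 0.60 (adjusted p = 0.419), which without NKT-modulated replicate 1 was -1.93 (adjusted p = 0.0315) and without NKT-modulated replicate 2 was 0.06 (adjusted p = 0.925). Il1rapl2, a receptor of the family with signals of 2.25 to 15.81 over the 4 arrays, did not pass either.

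Receptor-proximal signalling genes were mostly not called, with 4 higher and 1 lower of 15. Map3k8, a kinase between NF-kB and ERK signalling, had signals of 549.3 and 644.1 against 1370 and 1324 and rose by 1.30 ± 0.09 (adjusted p = 8.36e-04). The Pellino ubiquitin ligases, which act on IRAK kinases, moved in opposite directions. Peli1 rose by 1.04 ± 0.10, from 841.8 and 858.6 to 1696 and 1548, and Peli2 fell by 1.21 ± 0.17, from 388.7 and 371 to 130.5 and 136. The call of Peli2 was lost without immature replicate 1 (adjusted p = 0.0740) and without NKT-modulated replicate 1 (0.0504). Map3k3 rose by 0.54 ± 0.11 (adjusted p = 0.0280) and lost its call without any single array, at changes of 0.47 to 0.63. The call was also lost without further normalization (adjusted p = 0.09675) and without the intensity trend (0.117). With the mean of its probe sets the change was 0.43 and did not pass (adjusted p = 0.101).

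The inflammasome and processing list split, with 2 higher and 4 lower of 14 and a median of -0.02. Both rises were caspases that act on this pathway. Casp1, which cleaves the IL-1 beta and IL-18 precursors, went from 1035 and 1224 to 2196 and 2001 and rose by 0.98 ± 0.09 (adjusted p = 0.00168). Casp4, a sensor of intracellular lipopolysaccharide, went from 321.2 and 446.2 to 2429 and 2412 and rose by 2.74 ± 0.12 (adjusted p = 1.36e-04). Pycard, the adaptor ASC that joins sensors to caspase-1, fell by 0.49 ± 0.08 (adjusted p = 0.0125), from 6028 and 6083 to 4358 and 4393. Its call was lost without NKT-modulated replicate 1 (adjusted p = 0.101), without NKT-modulated replicate 2 (0.0657) and without the intensity trend (0.120). Gsdme, a pore-forming gasdermin, fell by 0.92 ± 0.10 (adjusted p = 0.00328), from 1979 and 2237 to 964.1 and 1095; with the mean of its probe sets the change was -1.56.

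Of 20 IL-1 inducible genes, which other stimuli of NF-kB induce too, 9 were called higher and 0 lower, and the median change was 0.64. Il6, an inflammatory cytokine, had signals of 148.4 and 202.8 against 5051 and 3915 and rose by 4.65 ± 0.14 (adjusted p = 4.51e-05). Ptgs2, the inducible cyclooxygenase, had 79.41 and 68.65 against 1325 and 894.4 and rose by 3.70 ± 0.21; with the mean of its probe sets the change was 2.62. Ccl2, a monocyte attractant, had 1222 and 1376 against 3332 and 3077, and Icam1, an adhesion molecule, 3924 and 4500 against 9543 and 8847. They rose by 1.35 ± 0.08 and 1.08 ± 0.07. Not every gene of this list moved: 11 of 20 did not pass, and 2 of these 11, Ccl20 and Nos2, had signals below 16 on all arrays.

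Among 8 measured transcription factors known to act at IL-1 genes, 5 were called higher and 0 lower, and the median change was 0.57. Rel, an NF-kB subunit, had signals of 442.4 and 460.4 against 1363 and 1106 and rose by 1.57 ± 0.13 (adjusted p = 0.00123). Irf4, a factor of DC and lymphocytes, had 2050 and 2368 against 4743 and 4950 and rose by 1.14 ± 0.08. With the mean of its probe sets the change was 0.76. Stat3 had 1227 and 1621 against 2738 and 2693 and rose by 1.01 ± 0.10. Irf8, a factor of DC development, had 5150 and 6156 against 9705 and 9094 and rose by 0.67 ± 0.09 (adjusted p = 0.00619); it lost its call without NKT-modulated replicate 1 (0.0512), without NKT-modulated replicate 2 (0.0505) and without the intensity trend (0.0780).

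**Figure D4:**
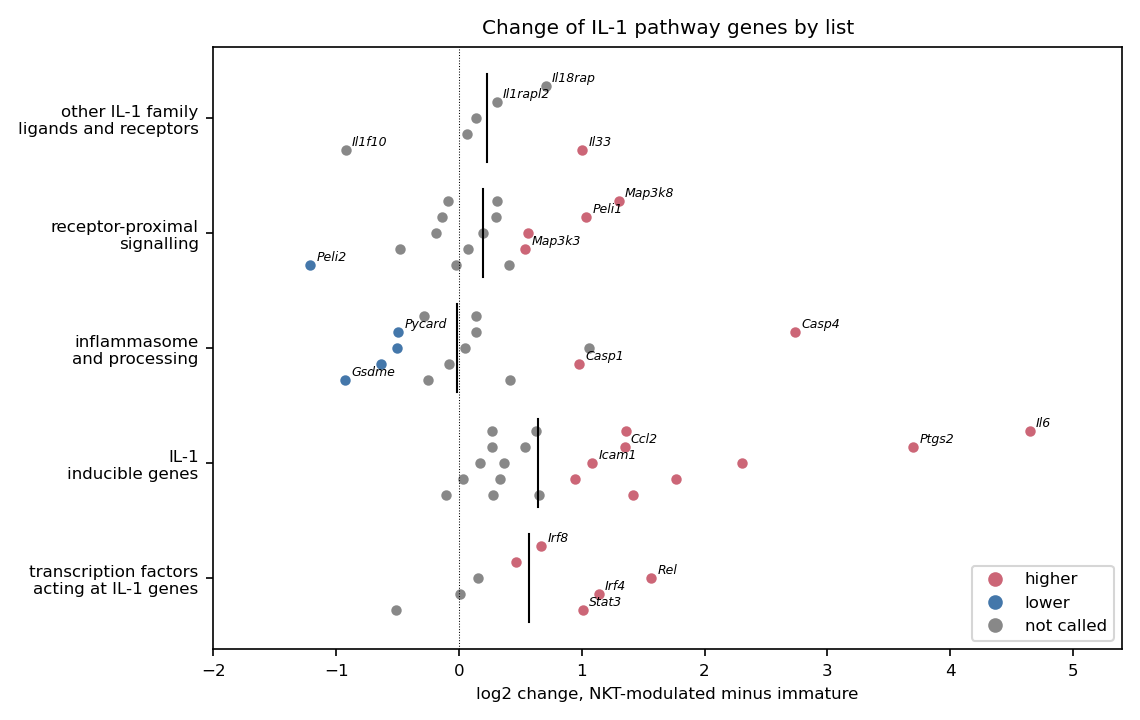
Log2 change, NKT-modulated minus immature, of the 63 measured genes of the 5 IL-1 pathway lists; each point is a gene's brightest probe set, coloured by its call, and black lines are list medians. The IL-1 inducible genes and the transcription factors have medians of 0.64 and 0.57, and the inflammasome list has rises and falls around -0.02.

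The genes nearest in pattern were taken by Euclidean distance between centred log2 values on the 4 arrays, with predicted and clone names passed over. They were Gbp6, Cnn3 and Egln3 for Il1a (0.266 to 0.377) and Npnt, Irgm1 and Tph1 for Il1b (0.118 to 0.207). For Il1rn they were Azi2, Lpxn and Slfn2 (0.0306 to 0.0404), and for Il18 they were Ice2, Pclaf and Hscb (0.012 to 0.028). With 4 arrays in 2 groups this measure separates genes poorly: 938 to 1190 genes correlated with each of these members at r over 0.95.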

How the data were processed

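RNA was measured on 4 Affymetrix mouse arrays. The authors deposited 1 intensity per probe set for each array, on a linear scale although the design text speaks of log transformation. Images were analysed with GCOS, per the submitters' processing notes. How signals were summarised and scaled is not given in the sources used here.

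Of 22690 probe sets, 64 controls were left out. The values analysed are log2(signal + 16) after quantile normalization, since array quartiles differed by up to 0.27. A change on this scale understates that of dim genes. Of the 13 member probe sets, 0 had a signal under 16 on any array, but the dimmer ones were still affected. With a pseudocount of 1, the change was -2.00 instead of -1.81 for Il18r1 and 0.93 instead of 0.83 for Il18bp. The test was limma 3.58.1, run in R 4.3.3 (lmFit, eBayes with an intensity trend, two-sided; 2 residual and 4.13 prior degrees of freedom), with Benjamini-Hochberg adjustment over 22626 probe sets and a threshold of 0.05. These steps were tested on simulated data. No detection calls were used, and the number of arrays limits the precision.

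Probe sets were named by the platform's annotation: 20380 had 1 symbol, 691 several and 1555 none here. Of those with 1 symbol, 20351 were matched by gene ID to RefSeq's GRCm38.p6 table and took its symbol, changed or not. Genes named are all members and, of each pathway list, up to 4 by smallest p (up to 2 without a call). The 3 genes nearest in pattern, predicted and clone names passed over, are named too. Of marker genes, the brightest of the dendritic cell, NK cell, mast cell and basophil, neutrophil and B cell lists are named. So are those below 16 on all arrays. The brightest of the T and NKT cell and macrophage lists are not. The genes Cd86, Csf2ra, Cd3d, Cd3g, Il2rb, Xcl1, Gzma, Hdc, S100a8, Ngp, Cxcr2, Ccl20 and Nos2 were named outside these rules, after their values were seen. The members and lists were chosen with earlier results of these data known.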

Additional observations from a re-analysis of the deposited data

How the results depend on the processing

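Alternatives were other pseudocounts (1 and 64), no further normalization, cyclic loess, leaving out probe sets under 64 on all arrays, no intensity trend, the mean of a gene's probe sets, each array left out and, chosen after seeing the data, adjustment over genes only. In 108 alternative values of the 9 members, direction never changed, 14 lost the call and 5 gained it; of 239 for the 20 pathway genes named, chosen by smallest p, 21 lost and 2 gained it. Without the intensity trend, 3 members were higher and 1 lower, 2 pathway genes were lower, and 382 genes were higher and 271 lower. At the design text's threshold of 0.001, 2 members were higher (Il1a and Il1b) and 0 lower, 7 pathway genes were higher and 0 lower, and 131 genes were higher and 22 lower. Leaving out 1 array gave 3 to 4 members higher and 1 lower, 16 to 18 pathway genes higher and 2 to 3 lower, and 393 to 508 genes higher and 304 to 405 lower. These fits have fewer arrays, and the lone array is assumed to vary like the other group. For 46.5% of called genes the change was upward, 35.2% without further normalization and 54.1% after cyclic loess; without it the median change of all genes was -0.12. No paired analysis was possible because the labels give the groups no shared replicate numbers. The replicate numbers 1 and 2 used here only count the arrays within a group. Whether a change passed went with its error as well as its size: Il18bp at 0.83 ± 0.22 did not pass, and Pycard at -0.49 ± 0.08 did.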
